A study of Mus musculus with 20 samples.

Results

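The cytokine gene Il33, the receptor gene Il20rb and 5 related genes (Il1rl1, Il1rap, Il20ra, Il10rb and Il34) were followed through cerebellar RNA of 20 mice, as 7 of the 29200 genes in the count table. Their rows were found by gene symbol. Il33 and Il20rb were selected on their differences between genotypes at 2 and 12 months in these same libraries, so their genotype values are given as a description, without a test. The other 5 genes were taken as receptor partners or as a related cytokine.

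In 304Q/304Q mice both copies of Atxn3, the gene of spinocerebellar ataxia type 3, carried a knock-in CAG repeat interrupted by CAA triplets. The name 304Q gives the length of the encoded glutamine stretch, and WT/WT mice carried no knock-in. The 4 groups of 5 mice were WT/WT and homozygous 304Q/304Q at 2 months and WT/WT and 304Q/304Q at 12 months, each mouse giving 1 polyA-enriched library. All were males on a C57BL6/N background, the wild types were littermates, and the knock-in mice descend from 1 founder line, so that an effect of the repeat and one of that line cannot be told apart. The wild-type label names ataxin-2 where the methods describe Atxn3, and the methods were followed.

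IL-33 is a cytokine of the IL-1 family that is stored in the nucleus, in the brain mainly in oligodendrocytes and astrocytes, and acts once it is released. It binds the receptor chain encoded by Il1rl1 (ST2), which then pairs with the shared chain encoded by Il1rap and signals through MyD88, IRAK and TRAF6 to NF-kB. The chain encoded by Il20rb pairs with that of Il20ra to bind IL-19, IL-20 and IL-24, while Il10rb encodes a chain shared by the receptors of IL-10, IL-22 and the lambda interferons; both signal through JAK kinases and STAT factors. Il34 encodes a ligand of the CSF1 receptor on which many microglia depend.

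Libraries held between 11385380 and 27636687 counts on genes, the highest total belonging to 1 304Q/304Q mouse of 2 months. Markers of granule, Purkinje and other cerebellar cells were present in every library. In 6 of the 20 libraries the summed level of 8 choroid plexus genes lay between 420 and 2140 CPM (counts scaled to a common library size), against 23.8 to 44.3 CPM in the others. These were no WT/WT and 1 304Q/304Q library at 2 months and 3 WT/WT and 2 304Q/304Q libraries at 12 months. Results are therefore also given without these 6 libraries, an alternative chosen after the data were seen, which leaves 2 WT/WT mice at 12 months.

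The promoters of the 2 genes the results turn on are shown for reference, from RefSeq on GRCm38.p6. RefSeq gave windows for 5 of the 7 genes, each running from 250 bases before a transcription start to 50 bases after it. In Il33, on the plus strand, the capitals mark matches to TATAAA, the letters of the TATA box motif, 203 bases before the start in chr19:29924863-29925162 and 29 bases before it in chr19:29945540-29945839, a start inside the gene. In Il20rb, on the minus strand, they mark a GC box (GGGCGG, here on the opposite strand) 50 bases before the start in chr9:100486424-100486723. This window also lies inside the annotated gene, which runs to 100486788.
Il33, first start: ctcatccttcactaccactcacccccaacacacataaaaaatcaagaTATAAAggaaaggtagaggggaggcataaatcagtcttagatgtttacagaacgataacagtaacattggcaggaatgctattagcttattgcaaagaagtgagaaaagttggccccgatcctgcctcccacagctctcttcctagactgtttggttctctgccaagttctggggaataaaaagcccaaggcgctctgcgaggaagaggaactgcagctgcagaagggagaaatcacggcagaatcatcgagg
Il33, second start: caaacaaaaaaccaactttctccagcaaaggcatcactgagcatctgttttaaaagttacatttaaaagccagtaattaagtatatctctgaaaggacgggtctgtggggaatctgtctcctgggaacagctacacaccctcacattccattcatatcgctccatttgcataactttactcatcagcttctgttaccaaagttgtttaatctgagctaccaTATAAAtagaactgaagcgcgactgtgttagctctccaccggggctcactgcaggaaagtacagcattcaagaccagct
Il20rb: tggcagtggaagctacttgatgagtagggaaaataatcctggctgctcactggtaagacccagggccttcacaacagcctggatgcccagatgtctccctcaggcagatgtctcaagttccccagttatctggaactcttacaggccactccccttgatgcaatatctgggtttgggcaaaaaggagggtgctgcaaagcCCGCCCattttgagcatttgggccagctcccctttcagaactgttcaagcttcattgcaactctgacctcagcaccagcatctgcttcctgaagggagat
On either strand, TATAAA stood in 13.6% of all 32851 RefSeq windows of this length, GGGCGG in 35.7%, and the STAT motif TTCNNNGAA in 8.3%. The STAT motif was found in none of the 7 windows of these genes. These matches describe letters and are not shown to be used.

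Il33 (ENSMUSG00000024810, chromosome 19 of GRCm38 from 29925114 to 29960718, plus strand) had its lower values in the knock-in at both ages, and rose with age by a similar amount in each genotype. At 2 months the WT/WT mice had 27.8, 30.6, 26.6, 26.9 and 30.7 CPM, and the 304Q/304Q mice 18.3, 23.3, 18.4, 20.9 and 18.9 CPM. The groups did not overlap, with means of 28.5 ± 2.01 and 19.96 ± 2.12 CPM (SD, n = 5 each). Every 304Q/304Q mouse lay below every WT/WT mouse at 2 months for 0.551% of the genes tested. This share is a background only, since the contrast chose Il33. At 12 months the levels in WT/WT were 35.7, 38.01, 40.9, 42.8 and 30.2 CPM, and those in 304Q/304Q were 26.6, 32.4, 26.2, 23.1 and 22.0 CPM. Here the groups met only at their edges, where the lowest WT/WT mouse lay under the highest 304Q/304Q mouse, and the WT/WT value was the higher in 24 of 25 pairs of mice. The means were 37.5 ± 4.90 and 26.05 ± 4.07 CPM.

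The fitted log2 difference of Il33 between genotypes (304Q/304Q minus WT/WT) was −0.52 at 2 months (standard error 0.106), or 0.698 times the WT/WT level, and −0.53 at 12 months (standard error 0.104), or 0.694 times. These values chose the gene and carry no test. Without the 6 libraries rich in choroid plexus genes they were −0.49 and −0.70. The difference between the ages was −0.01 on the log2 scale, with a standard error of 0.149.

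With age, Il33 rose in WT/WT animals by 0.39, as a log2 change, (standard error 0.104, adjusted p = 0.0159 from the quasi-likelihood fit of edgeR, corrected by Benjamini-Hochberg over all genes tested). The rise in 304Q/304Q was 0.39 (standard error 0.106, adjusted p = 0.0247 by edgeR). All genes tested gave 11.5% and 7.26% past this threshold. The age contrasts use the same mice as the genotype contrasts that chose Il33 and Il20rb, and so are not independent of that choice. In each genotype the age groups overlapped, the 2-month value being the higher in 2 of 25 pairs. The WT/WT call was lost on leaving out replicate 3 of its 12-month group (adjusted p = 0.0531 by edgeR) or replicate 4 (0.0502). That in 304Q/304Q was lost without any of 5 libraries (adjusted p from 0.0525 to 0.0985 by edgeR), namely replicates 1, 3 and 5 of 2 months and 1 and 2 of 12 months, and without the choroid plexus libraries (log2 change 0.34, adjusted p = 0.178 by edgeR), while WT/WT then gave 0.55 (adjusted p = 0.0201 by edgeR).

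From lowest to highest, the mean level of Il33 ran from 304Q/304Q at 2 months over 304Q/304Q at 12 months and WT/WT at 2 months to WT/WT at 12 months. The middle pair of groups did not separate, since the 2-month WT/WT value was the higher in 19 of 25 pairs.

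**Figure D1:**
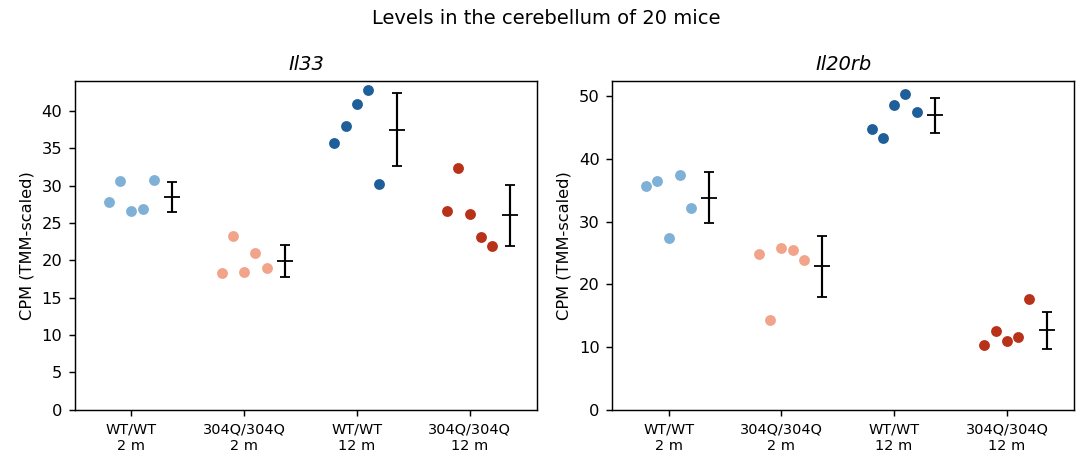
CPM of Il33 (left) and Il20rb (right) in each of 20 mice, by genotype and age in months (m); points are mice and the black bars give the mean ± SD of 5 mice. Il33 was on average higher at 12 than at 2 months in both genotypes, whereas Il20rb at 12 months lay between 43.4 and 50.4 CPM in WT/WT and between 10.4 and 17.7 CPM in 304Q/304Q mice.

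The receptor chain that gives IL-33 its specificity was too low to measure. Il1rl1 (ENSMUSG00000026069, chromosome 1 from 40429570 to 40465415, plus strand) had 27 reads over the 20 libraries, none in 13 of them and 8 at most. The groups held 8, 7, 10 and 2 reads in the order WT/WT and 304Q/304Q at 2 months, then WT/WT and 304Q/304Q at 12 months. A library with no read still allows up to 0.264 CPM at the lowest depth, taking 3 counts as the limit. No difference could be detected at this depth, and with no filter on low counts the adjusted p by edgeR was 0.52 or higher in every contrast.

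The shared chain Il1rap (ENSMUSG00000022514, chromosome 16 from 26581704 to 26730117, plus strand) was measured in every library and passed the test in no contrast. Its 2-month levels were 27.9, 25.3, 25.4, 19.9 and 20.3 CPM in WT/WT and 19.4, 18.7, 18.0, 20.2 and 23.0 CPM in 304Q/304Q mice. At 12 months they were 21.4, 19.0, 17.3, 19.5 and 19.7 CPM in WT/WT and 14.8, 18.6, 22.4, 15.4 and 16.03 CPM in 304Q/304Q mice. The genotypes overlapped at both ages. The log2 difference between genotypes was −0.26 at 2 months (95% interval −0.489 to −0.0206, adjusted p = 0.86 by edgeR) and −0.15 at 12 months (−0.393 to 0.0876, adjusted p = 0.421 by edgeR). Of all genes tested, 0.0494% passed at 2 months and 12.5% at 12 months. The change with age in WT/WT was −0.29 (adjusted p = 0.0954 by edgeR) and passed only on leaving out replicate 4 of the younger group (−0.35, adjusted p = 0.0463 by edgeR). In 304Q/304Q it was −0.19 (adjusted p = 0.4 by edgeR). An antisense gene, Gm20319, overlaps its exons but had 6 reads, all in 1 library.

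Of the 10 ligands of the IL-1 family listed, only Il33 and Il18 reached a mean of 50 counts, the limit for testing. Il18, an inflammasome product, had a log2 difference of −0.22 between genotypes at 12 months (adjusted p = 0.449 by edgeR). Of 10 genes of the IL-1 receptor family 3 were tested, Il1r1, Il1rap and Il1rapl1, and none passed in any contrast, with adjusted p of 0.0811 or higher by edgeR. Of the signalling genes below the receptor, 17 of 19 were tested. At 12 months 2 of these 17 rose in 304Q/304Q mice and none fell, a share near the 12.5% of all genes that passed: Tab3, an adaptor of the kinase TAK1, by 0.43 (standard error 0.082, adjusted p = 0.000896 by edgeR) and Map3k7, which encodes TAK1, by 0.27 (standard error 0.061, adjusted p = 0.00418 by edgeR). The call of Map3k7 was lost with surrogate variables (0.107 in edgeR) and without the choroid plexus libraries (0.0932), where that of Tab3 stayed (0.0418). None of the 17 passed at 2 months or with age. Their median log2 difference at 12 months was 0.073, and that of all genes −0.00386.

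Il20rb (ENSMUSG00000044244, chromosome 9 from 100457719 to 100486788, minus strand) had the largest genotype difference of the 5 genes tested, and its change with age had opposite signs in WT/WT and 304Q/304Q. At 2 months its level was 35.6, 36.5, 27.5, 37.4 and 32.1 CPM in WT/WT and 24.9, 14.4, 25.9, 25.4 and 23.8 CPM in 304Q/304Q mice. At 12 months it was 44.8, 43.4, 48.7, 50.4 and 47.5 CPM in WT/WT and 10.4, 12.6, 11, 11.6 and 17.7 CPM in 304Q/304Q mice. The genotypes overlapped at neither age, and the gap between them was wider at 12 months. The means were 33.8 ± 4.08 and 22.9 ± 4.82 CPM at 2 months and 46.9 ± 2.86 and 12.7 ± 2.95 CPM at 12 months (SD, n = 5 each). Among all genes tested, the 304Q/304Q mice lay entirely below the WT/WT mice for 0.551% at 2 months and 5.43% at 12 months, given as a background only, since these contrasts chose the gene.

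The log2 difference of Il20rb between genotypes was −0.56 at 2 months (standard error 0.136), or 0.678 times the WT/WT level, and −1.89 at 12 months (standard error 0.143), or 0.271 times. The 12-month difference was thus larger by 1.33 on the log2 scale, an interaction of −1.33 with a standard error of 0.197. Of all genes tested, 1.95% passed the interaction test, which was not read for Il20rb since the genotype contrasts form it. Without the lowest 304Q/304Q mouse of 2 months (replicate 2, 14.4 CPM), the values were −0.44 at 2 months and −1.45 for the interaction. Without the choroid plexus libraries they were −0.61 at 2 months, −1.82 at 12 months and −1.22 for the interaction.

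In WT/WT mice Il20rb rose with age by 0.47 (standard error 0.133, adjusted p = 0.0236 by edgeR), with every 12-month mouse above every 2-month mouse, as held for 3.64% of the genes tested. In 304Q/304Q mice it fell by 0.85 (standard error 0.144, adjusted p = 0.000334 by edgeR), to 0.554 times its 2-month level, the older mouse having the lower value in 24 of 25 pairs. Both age changes use the mice of the genotype contrasts that chose Il20rb, and together they form the interaction. Their adjusted p are therefore no independent test of this gene. The fall passed in every alternative, ranging from −1.01 to −0.67, the smallest being that without the choroid plexus libraries (adjusted p = 0.0469 by edgeR). The rise in WT/WT did not pass without those libraries (0.55, adjusted p = 0.0591 by edgeR), in DESeq2 with surrogate variables (adjusted p = 0.0606), or without the 2-month replicate 3 (0.0717) or the 12-month replicate 3 (0.0608), 4 (0.0557) or 5 (0.0518) in edgeR. The order of the group means was 304Q/304Q at 12 months, 304Q/304Q at 2 months, WT/WT at 2 months and WT/WT at 12 months, and of the neighbours only the 2 knock-in groups overlapped, in 1 pair of mice.

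Il20ra (ENSMUSG00000020007, chromosome 10 from 19712570 to 19760053, plus strand), encoding a chain with which that of Il20rb pairs, was too low to measure. It had 65 reads over the 20 libraries, none in 4 of them and 9 at most, with 12, 23, 19 and 11 reads in the groups in the order used above. With no filter on low counts its adjusted p by edgeR was 0.742 or higher in every contrast. Il20ra and Il1rl1 had means of 3.25 and 1.35 reads, and the lowest gene above the limit, Il10rb, had 89.2, so that 5 of the 7 genes were tested.

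Il10rb (ENSMUSG00000022969, chromosome 16 from 91406164 to 91425834, plus strand) passed in no contrast. Its exons overlap those of Gm21970, a coding gene on the same strand that was not analysed here, so its counts are uncertain. In 2-month mice it had 6.43, 4.57, 5.01, 7.18 and 4.34 CPM in WT/WT and 5.10, 6.95, 5.71, 5.93 and 5.95 CPM in 304Q/304Q. In 12-month mice it had 7.52, 7.39, 7.07, 7.34 and 7.19 CPM in WT/WT and 7.32, 7.33, 6.77, 5.52 and 6.43 CPM in 304Q/304Q. Genotypes overlapped at both ages, and the 12-month WT/WT mice lay closest together. The log2 difference between genotypes was 0.10 at 2 months (95% interval −0.2 to 0.406, adjusted p = 0.957 by edgeR) and −0.13 at 12 months (−0.428 to 0.168, adjusted p = 0.598 by edgeR). The change with age was 0.41 in WT/WT (adjusted p = 0.068 by edgeR) and 0.18 in 304Q/304Q (adjusted p = 0.575 by edgeR). On leaving out replicate 4 of the 2-month WT/WT group the former passed (0.53, adjusted p = 0.0205 by edgeR).

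**Figure D2:**
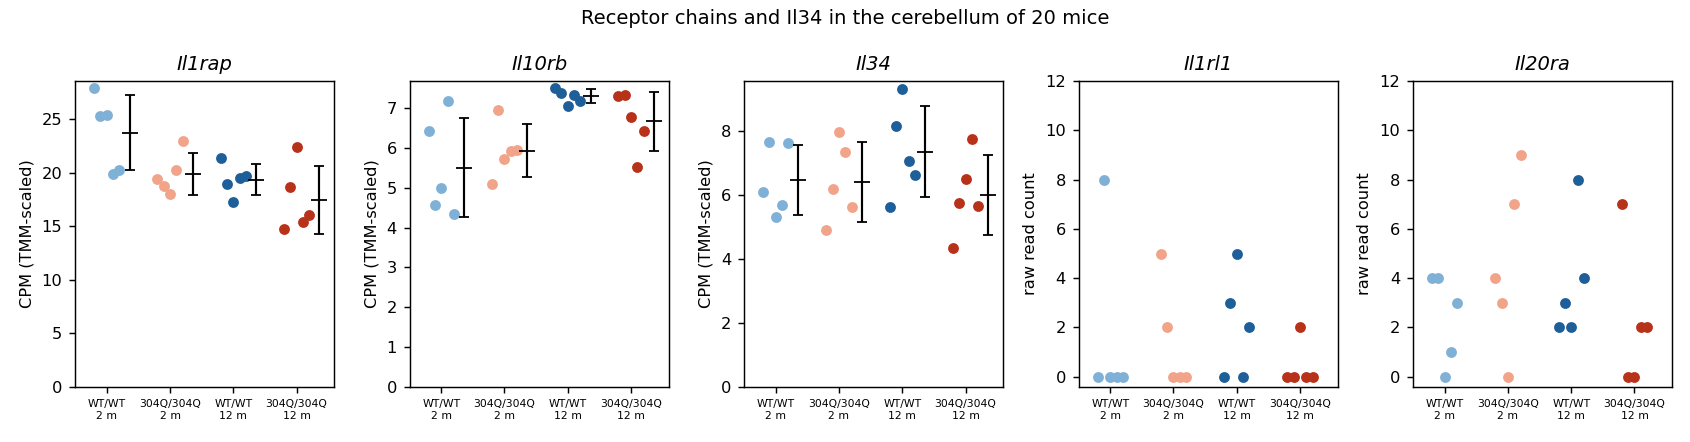
Levels of the receptor chains and Il34 in each of 20 mice, in CPM for Il1rap, Il10rb and Il34 (black bars, mean ± SD of 5 mice) and in raw reads for Il1rl1 and Il20ra, by genotype and age in months (m). The genotypes overlapped at both ages in all 5 genes, and no library had more than 9 reads of Il1rl1 or Il20ra.

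Among the 12 class II cytokine receptors listed, which include the interferon receptor chains, 8 were tested. Apart from Il20rb, none of the other 7 passed between genotypes at either age, and their 12-month log2 differences ran from −0.359 to 0.0438. With age in 304Q/304Q mice 1 of them fell, Il10ra, which encodes the IL-10 binding chain (−0.88, standard error 0.246, adjusted p = 0.0269 by edgeR), where 7.26% of all genes passed. This call was lost without the choroid plexus libraries (adjusted p = 0.196 by edgeR) and without any of 7 single libraries, replicates 1, 3 and 5 of 2 months and 1, 2, 3 and 5 of 12 months (adjusted p from 0.054 to 0.0733 by edgeR). None of the 7 ligands of the IL-10 family listed reached 50 counts. Of 11 JAK-STAT genes 8 were tested and none passed between genotypes. All 8 had higher values in 304Q/304Q mice at 12 months (median log2 difference 0.118, lowest adjusted p = 0.0814 by edgeR), where the median of all genes was −0.00386. These genes share libraries and scaling, so their signs are not independent.

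Il34 (ENSMUSG00000031750, chromosome 8 from 110741829 to 110805924, minus strand) passed in no contrast. The antisense genes Gm15894 and Gm15895 overlap its exons and had 28 and 13 reads over the 20 libraries, against 1846 for Il34. Its 2-month levels were 6.11, 7.67, 5.33, 5.68 and 7.62 CPM in WT/WT and 4.92, 6.19, 7.99, 7.36 and 5.64 CPM in 304Q/304Q mice. Its 12-month levels were 5.64, 8.16, 9.33, 7.06 and 6.64 CPM in WT/WT and 4.35, 5.77, 6.51, 7.75 and 5.65 CPM in 304Q/304Q mice. All 4 groups overlapped one another. The log2 difference between genotypes was −0.03 at 2 months (95% interval −0.392 to 0.335, adjusted p = 0.992 by edgeR) and −0.30 at 12 months (−0.665 to 0.0685, adjusted p = 0.286 by edgeR), so that a difference as large as that of Il33 lies within the 12-month interval. The change with age was 0.18 in WT/WT (adjusted p = 0.528 by edgeR) and −0.09 in 304Q/304Q mice (adjusted p = 0.856 by edgeR).

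All 5 listed genes of the IL-34 and CSF1 axis were tested, of which 1 passed between genotypes at 12 months and 2 with age in each genotype, where 12.5% (genotype), 11.5% (age in WT/WT) and 7.26% (age in 304Q/304Q) of all genes passed. Sdc1, encoding syndecan-1, a co-receptor that also binds IL-34, fell in 304Q/304Q against WT/WT mice at 12 months by 0.73 on the log2 scale (standard error 0.123, adjusted p = 0.000239 by edgeR) and with age in the knock-in by 0.60 (standard error 0.123, adjusted p = 0.00215 by edgeR). Csf1r, the receptor of IL-34 and CSF1 on microglia, rose with age by 0.49 in WT/WT (standard error 0.103, adjusted p = 0.00366 by edgeR) and by 0.35 in 304Q/304Q (standard error 0.103, adjusted p = 0.0368 by edgeR). Of the microglial markers tested, of which Csf1r is 1, 7 of 9 rose with age in each genotype, against the same shares of 11.5% and 7.26% of all genes. Ptprz1, encoding a phosphatase that is a further receptor of IL-34, fell with age in WT/WT mice by 0.29 (standard error 0.0727, adjusted p = 0.0123 by edgeR). The call of Csf1r in 304Q/304Q mice was lost without the choroid plexus libraries (adjusted p = 0.109 by edgeR) and without any of 8 single libraries, replicates 1, 2, 3 and 5 of 2 months and 1, 3, 4 and 5 of 12 months (0.0556 to 0.104), and that of Ptprz1 with surrogate variables (0.0826 in edgeR, 0.0592 in DESeq2).

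**Figure D3:**
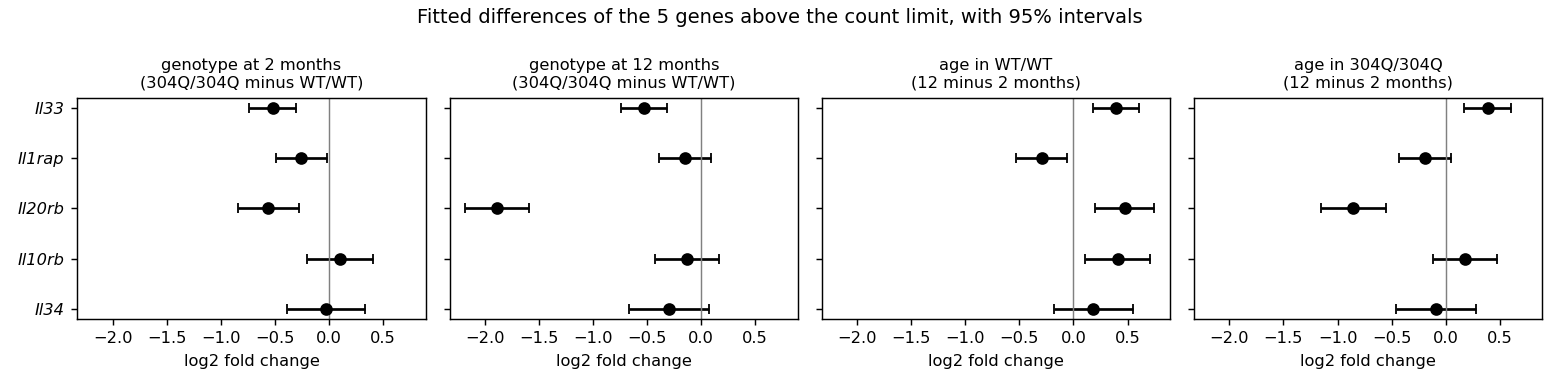
Log2 fold changes of the 5 genes above the limit of 50 counts, in the genotype contrast at each age and the age contrast in each genotype; points are fitted values and bars 95% intervals. Il20rb stands at −1.89 between genotypes at 12 months, while the intervals of Il10rb and Il34 include 0 in both genotype contrasts.

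**Figure D4:**
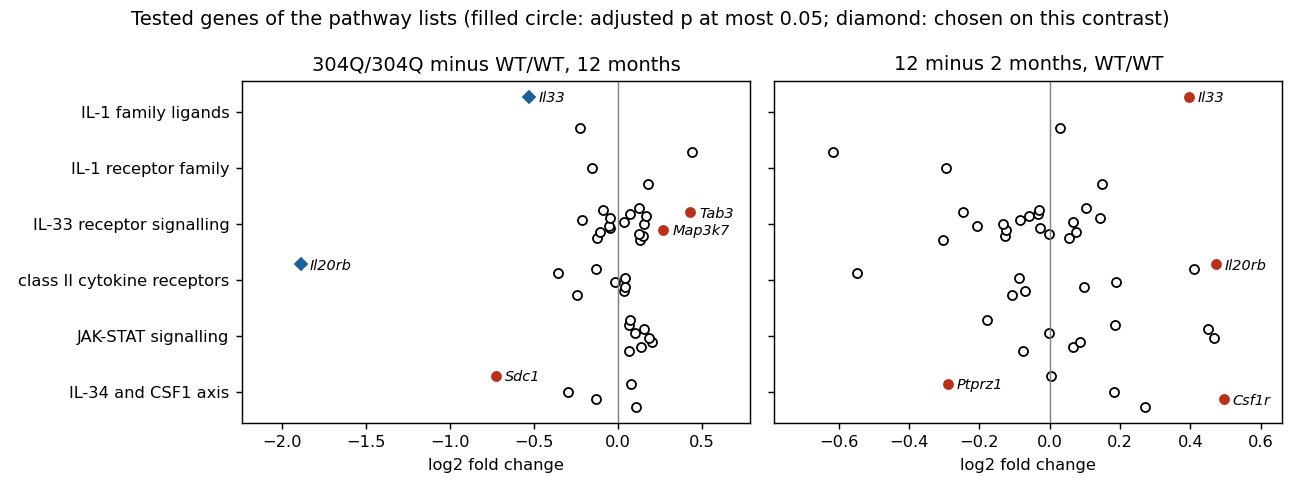
Log2 fold changes of the tested genes of 6 pathway lists, between genotypes at 12 months (left) and with age in WT/WT mice (right); filled circles passed an adjusted p of 0.05, open circles did not, and diamonds are Il33 and Il20rb in a contrast used to choose them. Tab3, Map3k7 and Sdc1 are the filled circles on the left.

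Compared per kilobase of exon, the mean level over the 20 mice was highest for Il33, at 9.71 RPKM (CPM divided by exon length in kilobases), followed by Il20rb (6.91), Il34 (3.35), Il1rap (1.77) and Il10rb (1.67). Il20ra and Il1rl1 stood at 0.0929 and 0.0133 RPKM. Il33 held rank 4905 and Il20rb rank 6235 among the 12153 genes tested. In 304Q/304Q mice of 12 months Il20rb stood at 3.01 ± 0.702 RPKM, near the 3.065 ± 0.637 RPKM of Il34 (SD, n = 5).

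Over the 20 mice, log2 levels of Il33 and Il20rb had a Pearson r of 0.502, and of −0.349 after each group's mean was subtracted. These correlations describe mice that share group, tissue and library scaling. The genes whose pattern was most like that of Il33 were Fgf1 (r = 0.873), Stac2 (0.847), Hspb8 (0.845), Pacsin2 (0.819) and Itgb5 (0.815). With the group means subtracted they were Pacsin2 (0.766), Slc6a7 (0.756), Cc2d1b (0.735), Osgepl1 (0.728) and Vamp1 (0.727), so that Pacsin2 stood in both sets. For Il20rb they were Plk5 (0.943), Plekhg4 (0.931), Crhr1 (0.927), Gm39465 (0.923) and Slc16a11 (0.922), and with the group means subtracted Sfswap (0.835), Appl2 (0.782), Snrnp70 (0.779), Iah1 (0.77) and Dot1l (0.77). The 2 sets for Il20rb had no gene in common.

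Markers of myelinating oligodendrocytes, cells known to hold IL-33, moved with genotype beside Il33 and Il20rb. Of 16 such genes 8 fell in 304Q/304Q mice at 12 months (15 had lower values, median log2 difference −0.359), among them Mobp by 0.80 and Mbp by 0.43, while 1 fell at 2 months (median −0.15). Of all genes, 12.5% passed at 12 months and 0.0494% at 2 months. Without the choroid plexus libraries the counts were 7 and 0, with surrogate variables in edgeR 11 and 3, and in DESeq2, with or without surrogate variables, 10 and 2. The summed level of the 16 genes ran from 6112.6 to 6947.4 CPM in WT/WT and 5300.3 to 5970.1 CPM in 304Q/304Q mice at 2 months, and from 5714.6 to 6489.2 CPM and 3780.6 to 5165.5 CPM at 12 months. None of the 16 was at 0 in any library. With age this list did not follow Il33, which rose by 0.39 in each genotype. In 304Q/304Q mice 8 of the 16 genes fell with age and 0 rose (median log2 change −0.389), where 7.26% of all genes passed. In WT/WT mice 4 fell with age and 2 rose (median −0.137), where 11.5% of all genes passed. In bulk tissue, fewer cells of a type and less RNA per cell cannot be told apart.

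Set against this sum, Il33 stood at 4.44 ± 0.308 per 1000 CPM of the list in WT/WT and 3.59 ± 0.318 in 304Q/304Q at 2 months, and at 6.16 ± 0.846 and 5.87 ± 0.475 at 12 months (SD, n = 5). At 2 months the genotypes did not overlap in this ratio (4.12 to 4.95 and 3.19 to 3.92), whereas at 12 months they did (4.81 to 7.03 and 5.20 to 6.28). For Il20rb the ratio was 5.25 ± 0.484 and 4.15 ± 0.992 at 2 months and 7.69 ± 0.331 and 2.92 ± 0.928 at 12 months, and at 12 months the genotypes stayed apart (7.50 to 8.28 and 2.18 to 4.47). At 2 months the Il20rb ratio overlapped (4.49 to 5.72 and 2.40 to 4.76). Markers of several other cells also had lower values in 304Q/304Q mice at 12 months, with 5 of 7 Purkinje cell, 3 of 4 unipolar brush cell, 3 of 8 interneuron, 2 of 8 endothelial, 4 of 5 blood and 3 of 12 astrocyte genes tested falling, where 12.5% of all genes passed in either direction. None fell of 8 granule cell, 9 microglial, 7 oligodendrocyte precursor and 4 choroid plexus genes tested, and 1 of 7 meningeal and fibroblast genes did. Of these, 1 granule cell and 1 microglial gene rose. The summed levels of these latter lists overlapped between genotypes at 12 months. The summed levels of the interneuron list (1701.7 to 1797.5 CPM in 304Q/304Q, 2070.5 to 2296.2 CPM in WT/WT), the endothelial list (318.19 to 344.87 and 365.2 to 381.16 CPM) and the blood list (96.2 to 112 and 116 to 246 CPM) did not overlap between genotypes at 12 months, nor did those of the Purkinje cell, unipolar brush cell and astrocyte lists. Of single genes tested, 5.43% had every 304Q/304Q mouse below every WT/WT mouse at 12 months. No such share was computed for summed lists or ratios. The part of these cell markers in the values of Il33 and Il20rb was not tested.

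**Figure D5:**
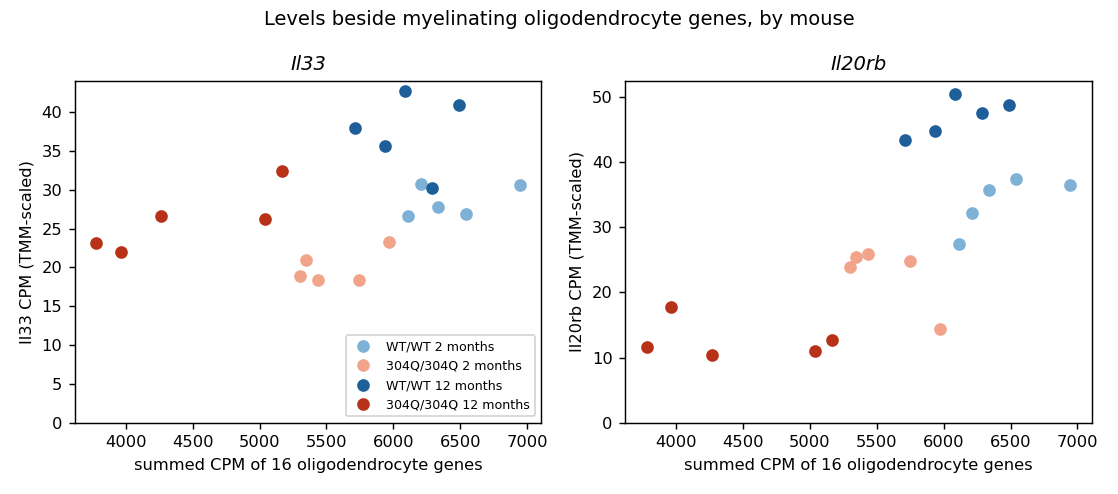
CPM of Il33 (left) and Il20rb (right) against the summed CPM of 16 myelinating oligodendrocyte genes, 1 point for each of 20 mice, coloured by group. The 304Q/304Q mice of 12 months have the lowest sums, from 3780.6 to 5165.5 CPM, and their Il20rb values lie at the bottom of the plot beside 1 low 304Q/304Q mouse of 2 months.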

How the data were processed

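Cerebellar polyA RNA of 20 mice was sequenced as paired ends on stranded libraries. Per the study's methods, STAR alignment to GRCm38 (Ensembl) was followed by counting with Rsubread, and the authors deposited the raw counts of each gene, unnormalized; the strand setting of the counting is not given in the sources used here. Each column was matched to 1 mouse by its name. The 7 genes and the gene lists were chosen with earlier results of these data known. The named pathway genes are those past the threshold in any contrast, apart from items not reported here, and the genes of like pattern are the 5 with the highest Pearson r.

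The 12153 genes averaging 50 counts or more per library were scaled by TMM and tested with edgeR 4.0.16 in R 4.3.3 (quasi-likelihood, 1 term per group, Benjamini-Hochberg over all genes tested, threshold 0.05), as a factorial design of genotype and age. The biological coefficient of variation was 0.113. Log2 CPM used a prior count of 2, and RPKM the exon length of GENCODE M21, in which 29150 IDs were found. Intervals and p-values measure the spread between mice, and limits for a count of 0 cover counting error only. No replicates of a group agreed within counting error (chi-square at least 4.43 times its degrees of freedom). In WT/WT at 2 months this ratio was 4.43 to 6.19 among replicates 1, 2 and 3 and 4.61 between 4 and 5. Across these sets it was 12.8 to 21.5. In WT/WT at 12 months it was 17.6 to 23.9 for pairs with replicate 1 and at most 11.3 for the others. Pairs of 304Q/304Q mice reached 19.8 at 2 months and 17.7 at 12 months. The source of these differences was not tested. The fits were also run on simulated counts with a common dispersion for all genes. That spread is simpler than in these data, so the run checks the code only.

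Alternatives were DESeq2 1.42.0, 3 surrogate variables from sva 3.50.0, other filters and size factors, the 2 groups compared alone, a replicate block, each library left out, and, chosen after the data were seen, removal of the 6 choroid plexus libraries. Motifs were searched on both strands of the RefSeq windows.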

Additional observations from a re-analysis of the deposited data

Results flagged for a closer look

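Il20rb in the 304Q/304Q mouse of 2 months numbered replicate 2 stood at 14.35 CPM, apart from the other 4 mice of its group (23.8 to 25.9 CPM). Its gap to the nearest mouse was 0.823 of the group's range, above the critical value of 0.71 for 5 samples. Of 20 groups of values examined (5 genes in 4 groups) this was the only one past the limit, and chance alone gives about 1 in 20. The same mouse had the highest Il33 level of its group, 23.3 CPM. Without it, the log2 difference of Il20rb between genotypes at 2 months was −0.44 and its change with age in 304Q/304Q mice −0.97.

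The genotype difference of Il20rb was not the same at both ages. The difference of the 2 log2 differences was −1.325, with a standard error of 0.197, and it ranged from −1.49 to −1.26 when single libraries were left out. The gene was chosen on these genotype differences, so the value is a description.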

How the results depend on the processing

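The counts of genes past the threshold moved with the processing, as did some calls of the 7 genes. Between genotypes at 2 months, where 6 genes passed, DESeq2 called 22, surrogate variables in edgeR 44, DESeq2 with surrogate variables 52, no filter 10, removal of the choroid plexus libraries 1, and leaving out 1 library 4 to 10. At 12 months 1523 became 651 without the choroid plexus libraries. With age in WT/WT, 1398 became 820 with surrogate variables in edgeR, 739 with only the compared groups, and 726 to 2542 with 1 library left out. With age in 304Q/304Q, 882 became 1510 with surrogate variables in edgeR, 1659 in DESeq2 with them, and 431 without the choroid plexus libraries. For the interaction, 237 became 395 in DESeq2, 410 in DESeq2 with surrogate variables, 94 without the choroid plexus libraries, and 155 to 558 with 1 library left out. The causes were not tested, and the reduced fits also hold fewer samples.

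No called value of the 7 genes or the named pathway genes changed sign in any alternative. The calls lost are given beside the results. Replicate numbers were not taken to pair the mice: 6 of 30 correlations between same-numbered mice were over 0.1 (range −0.323 to 0.551). The highest was between replicate 1 of WT/WT at 2 and at 12 months, and replicate 4 of these groups gave 0.271. With the replicate block 6, 1450, 1298, 828 and 204 genes passed in the order above, and no call of the 7 genes changed. Depth limits Il1rl1 and Il20ra, and with 5 mice a group the spread between mice limits the others.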
